A study of Drosophila melanogaster with 8 samples.

Results

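The mRNAs examined here encode proteins that work on or around the synaptic vesicle without forming its fusion machinery: Syn (synapsin), Syngr (synaptogyrin), Sap47 (synapse-associated protein of 47 kDa), Csp (cysteine string protein), Rab3, Rph (rabphilin) and Cadps (calcium-dependent secretion activator). These 7 genes were taken from a list of genes of vesicle clustering, chaperoning, tethering and dense-core release, and each symbol was matched to its FlyBase identifier, 7 of 10669 genes with counts. The rule uses no measured value. RNA came from pooled heads of adult wild-type Drosophila melanogaster (w1118 flies, 3 days old per the study's methods), a genotype that both groups share, and was sequenced from the polyadenylated 3′ end. Synaptosomes, pinched-off nerve terminals collected from layers of a Percoll gradient, gave 4 libraries, and the head homogenate they were prepared from, called input, gave 4 libraries. Per the study's methods, the collected layers held membranes besides synaptosomes, so RNA from outside terminals can be present. The sequenced RNA is a mixture from all cells of the head. Fewer terminals of a type, less RNA per terminal and a different amount of RNA from outside terminals therefore cannot be told apart. Nothing in the labels ties the libraries to separate collections of flies, and each p-value therefore reflects how far these libraries spread, which may be technical.

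Neurotransmitter is stored in small clear vesicles that gather near the active zone, are handed to release sites, and fuse when calcium enters the terminal. Synapsin holds vesicles in a reserve cluster and lets them go when it is phosphorylated, the Rab3 GTPase and its effectors steer vesicles to release sites, and cysteine string protein keeps proteins of the release machinery folded. Neuropeptides and amines leave instead from dense-core vesicles, which CAPS, the product of Cadps, prepares for fusion. In neurons most vesicle proteins are made in the cell body and carried down the axon, and some mRNAs also reach the terminals.

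The libraries were uneven in depth and in content. Synaptosome libraries held 4751447, 1029666, 1367641 and 9397652 counts (libraries 1, 2, 3 and the one labelled only old), and input libraries held 7940909 to 16865581. Levels are given as CPM, counts scaled to a common library size after adjusting each total by the trimmed mean of M-values (TMM), and because 1 read marks 1 transcript end, a level does not grow with transcript length. Both old libraries stood apart in fat body markers, and the old synaptosome library also in photoreceptor and cuticle markers. Summed fat body markers (6 genes) were at 14296 and 15836 CPM in the old synaptosome and input libraries, against 970 to 1430 and 3523 to 3764 CPM in libraries 1 to 3. In input, summed photoreceptor markers (11 genes) were at 72125 CPM in the old library and at 53221 to 68665 CPM in libraries 1 to 3. In synaptosomes they were at 107725 CPM in the old library and at 21326 to 43310 CPM in the other 3. Most of this came from Arr2 (15677 to 85357 CPM over synaptosome libraries) and Arr1 (3710 to 19824 CPM). Summed cuticle and epidermis markers (8 genes) were at 2831 CPM in the old input library and at 2858 to 3628 CPM in input libraries 1 to 3. In synaptosomes they were at 3690 CPM in the old library against 15353 to 23172 CPM in the other 3. Most of that came from Cpr72Ec (3378 to 22597 CPM over synaptosome libraries). The level of each vesicle-associated gene is therefore also given for libraries 1 to 3 alone and for the old libraries alone, called the old pair after their shared label.

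In input the vesicle-associated mRNAs ranged over an order of magnitude. Sap47 averaged 248 ± 84.8 CPM (SD, n = 4, as for all means below unless stated) and Csp 187 ± 105 CPM, followed by Syngr at 58.2 ± 31.0, Syn at 45.2 ± 18.9, Rab3 at 24.7 ± 12.3, Rph at 23.6 ± 4.09 and Cadps at 22.4 ± 15.5 CPM. The ranges of every pair of neighbours in this order overlapped. Csp exceeded Syngr and Syn exceeded Rab3 in 4 of 4 input libraries, whereas the order of Rab3 and Rph held in 2 of 4. In synaptosomes the order of the means was Sap47 (58.0 ± 30.9 CPM), Csp (37.7 ± 40.2), Syn (36.0 ± 48.4), Syngr (11.6 ± 7.03), Rph (10.6 ± 20.4), Cadps (6.51 ± 11.9) and Rab3 (5.70 ± 7.72), and for 5 of the 7 genes the SD was larger than the mean. All 7 mRNAs together made up 0.0219% to 0.0940% of input counts and 0.00939% to 0.0281% of synaptosome counts.

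**Figure D1:**
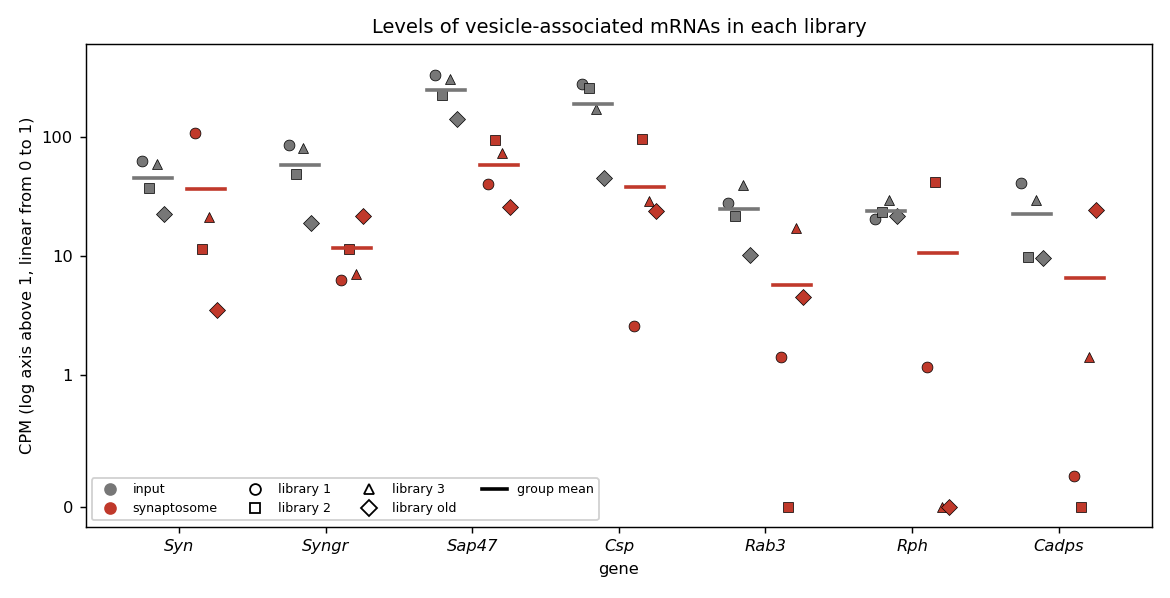
Level of each mRNA (CPM, log axis above 1) in the 4 input (grey) and 4 synaptosome (red) libraries, with the marker shape giving the library and the bar the group mean. Sap47 is the gene whose synaptosome points (at most 93.8 CPM) all lie under its input points (at least 139.9 CPM), while Syn, Rph and Cadps each have 1 synaptosome point far above the other 3.

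Both groups were compared to ask which of these mRNAs differed in level between the synaptosome fraction and the whole head. All 7 fitted log2 fold changes (synaptosome minus input) were negative, with a median of -2.10, beside a median of -0.35 over all 8159 tested genes, of which 62.3% were below 0. Markers of other cells differed between the same groups: 7 of 11 photoreceptor markers (median log2 fold change -2.46) and 2 of 8 muscle markers (-1.52) were lower in synaptosomes, while 3 of 7 cuticle and epidermis markers (1.38) and 1 of 7 glia markers (0.32) were higher. Their part in the members' fold changes was not tested. Sap47 was the member that passed the test (edgeR quasi-likelihood, Benjamini-Hochberg adjusted p under 0.05), 1 of 7 lower and 0 higher, where 4.13% of all tested genes were lower and 0.944% higher. Without adjustment 3 members had p under 0.05 (Sap47, Syngr and Csp), where 1166 of all 8159 tested genes did. DESeq2 placed 2 members lower (Sap47 and Syngr), where it placed 425 of all genes lower. Full separation of the groups, every synaptosome library below every input library, was seen for 1 of 7 members and for 14.5% of all tested genes. Over libraries 1 to 3 alone, 5 of 7 members separated fully (Syngr, Sap47, Csp, Rab3 and Cadps), where 28.1% of 8066 genes did, and 2 of 7 passed the test (Syngr and Sap47), where 6.14% of genes did. In the old pair, 5 of 7 members were lower in the synaptosome library, the exceptions being Syngr and Cadps, where 58.1% of all tested genes were lower.

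**Figure D2:**
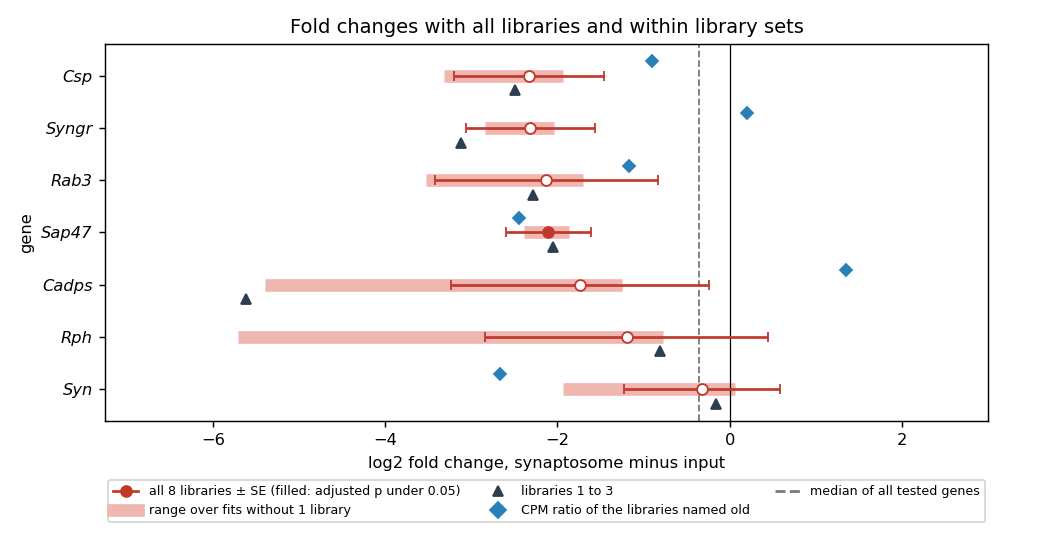
Log2 fold change of each mRNA (synaptosome minus input) with all 8 libraries (circles, bars ± SE, filled where the adjusted p was under 0.05), its range when 1 library was left out (pale bars), the fit to libraries 1 to 3 (triangles) and the CPM ratio of the old pair (diamonds, absent for Rph, which had 0 counts in the old synaptosome library). Sap47 has the shortest pale bar (-2.39 to -1.86), and for Syngr and Cadps the diamond lies on the other side of 0 from the triangle.

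Sap47, gene FBgn0013334 on chromosome 3R (15935100 to 15962124, plus strand; release 6 of the fly genome, dm6), encodes a vesicle-associated protein of fly terminals that is linked to synapsin. It was at 39.9, 93.8, 72.7 and 25.7 CPM in synaptosome libraries 1, 2, 3 and old, and at 328, 222, 302 and 139.9 CPM in the input libraries of the same names. No synaptosome value reached the lowest input value. The mean was 4.27-fold lower in synaptosomes (log2 fold change -2.10 ± 0.50 SE, edgeR adjusted p = 0.049). Over libraries 1 to 3 it was -2.05 ± 0.42 (adjusted p = 0.0487), and the old input library exceeded the old synaptosome library 5.45-fold (95% counting interval 4.74 to 6.30). The call lay close to the threshold. It held in 1 of the 8 fits that left out 1 library (the one without the old synaptosome library, adjusted p = 0.0361) and was lost in the other 7, with adjusted p up to 0.130 and the log2 fold change between -2.39 and -1.86.

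Syn, gene FBgn0004575 on chromosome 3R (10190689 to 10222442, plus strand), encodes synapsin, the phosphoprotein that clusters vesicles. Its synaptosome levels were 107.8, 11.4, 21.2 and 3.52 CPM and its input levels 62.8, 37.2, 58.5 and 22.3 CPM. Synaptosome library 1 was above every input library while the other 3 were below the lowest input, and that library alone held 74.9% of the summed synaptosome level. The fitted log2 fold change was -0.32 ± 0.90 (adjusted p = 0.943). It was -1.94 without synaptosome library 1 and 0.058 without the old synaptosome library, so its direction depended on single libraries. Library 1 rested on 462 counts for Syn, against 13, 30 and 30 in the others. In the old pair the input level was 6.35-fold higher (4.36 to 9.58), and over libraries 1 to 3 the log2 fold change was -0.16 ± 0.86 (adjusted p = 0.962). The gene Timp lies on the opposite strand within Syn, and whether counting used strand is not given in the sources used here.

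Syngr, gene FBgn0033876 on chromosome 2R (13841761 to 13846255, minus strand), encodes synaptogyrin, a membrane-spanning protein of the vesicle. Its levels were 6.30, 11.4, 7.06 and 21.6 CPM in synaptosomes and 85.4, 48.3, 80.2 and 18.8 CPM in input. Libraries 1 to 3 were far apart between the groups, whereas the old libraries were level, the synaptosome value being 1.15 times the input value (0.945 to 1.39). The mean was 5.03-fold lower with all libraries (log2 fold change -2.32 ± 0.75, adjusted p = 0.118), and the test was passed over libraries 1 to 3 (-3.13 ± 0.64, adjusted p = 0.0487), without the old synaptosome library (-2.84, adjusted p = 0.0396) and by DESeq2 (-2.24, adjusted p = 0.0233), but in none of the other 15 alternatives (adjusted p from 0.0916 to 0.492 without 1 of the other libraries).

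Csp, gene FBgn0004179 on chromosome 3L (22267382 to 22273745, plus strand), encodes the vesicle co-chaperone that recruits the constitutive heat shock protein Hsc70. It was at 2.57, 95.5, 28.9 and 23.8 CPM in synaptosomes and at 274, 258, 171 and 44.5 CPM in input. Only synaptosome library 2 passed the lowest input library, which was the old one. Its synaptosome counts ranged from 11 in library 1 to 203 in the deep old library, with 109 in library 2, where the level was highest. The fitted log2 fold change of -2.33 ± 0.87 missed the threshold (adjusted p = 0.202) and stayed negative in all 8 fits without 1 library, from -3.32 to -1.94. Over libraries 1 to 3 it was -2.50 ± 1.05 (adjusted p = 0.232), and in the old pair input was 1.87-fold higher (1.59 to 2.20).

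Rab3 and Rph belong to the same tethering step, the GTPase and an effector that binds its active form. Rab3, gene FBgn0005586 on chromosome 2R (10721335 to 10729203, minus strand), was at 1.40, 0, 16.9 and 4.45 CPM in synaptosomes and at 27.8, 21.5, 39.6 and 10.0 CPM in input. Its single 0 lay in the shallowest library, where 3 counts correspond to 2.63 CPM, so a level under that was not detectable. Synaptosome library 3 was above the lowest input library and the others were below it. The log2 fold change was -2.13 ± 1.30 (adjusted p = 0.548), -3.53 without synaptosome library 3, and -2.29 ± 1.60 over libraries 1 to 3 (adjusted p = 0.566). In the old pair input was 2.26-fold higher (1.57 to 3.32).

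Rph, gene FBgn0030230 on the X chromosome (10749077 to 10757666, minus strand), was the most even member in input, at 20.5, 23.1, 29.5 and 21.3 CPM. In synaptosomes it was at 1.17, 41.2, 0 and 0 CPM. Library 2 thus stood above all 4 input libraries and held 97.2% of the summed synaptosome level, from 47 counts, while the other 3 libraries together held 5. In the old synaptosome library 3 counts correspond to 0.352 CPM, well under the 21.3 CPM of the old input library. The log2 fold change with all libraries, -1.20 ± 1.64 (adjusted p = 0.861), and over libraries 1 to 3, -0.81 ± 1.73 (adjusted p = 0.902), rested on library 2, and without that library it was -5.71 and still missed the threshold. The last 21 bases of Rph overlap the gene ras, which lies on the opposite strand and was at 200 to 357 CPM in synaptosomes and at 105 to 178 CPM in input. Without strand, reads of this overlap cannot be assigned to either gene. In synaptosome libraries 3 and old, where Rph had 0 counts, ras had 284 and 3049.

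Cadps, gene FBgn0053653 on chromosome 4 (1230837 to 1271759, plus strand), encodes CAPS, the priming factor of dense-core vesicles. It was at 0.233, 0, 1.41 and 24.4 CPM in synaptosomes and at 41.0, 9.73, 29.5 and 9.54 CPM in input. Synaptosome libraries 1 to 3 held 3 counts among them against 848 in input libraries 1 to 3. The old synaptosome library held 208 counts and was 2.55 times the old input library (2.04 to 3.20). Pooled over libraries 1 to 3, the input level was 61.5 times the synaptosome level (95% counting interval 21.0 to 299). The log2 fold change was -1.74 ± 1.50 with all libraries (adjusted p = 0.721), -5.40 without the old synaptosome library (adjusted p = 0.0454) and -5.62 ± 1.67 over libraries 1 to 3 (adjusted p = 0.0782). The old synaptosome library is also the one with the high summed photoreceptor markers (mostly Arr2 and Arr1) and fat body markers given above. The part of that difference in the Cadps level was not tested.

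The members did not peak together in synaptosomes. The highest synaptosome value came from library 1 for Syn, from library 2 for Sap47, Csp and Rph, from library 3 for Rab3 and from the old library for Syngr and Cadps. The median coefficient of variation among synaptosome libraries was 135% over the 7 members and 91.4% over all tested genes, and among input libraries 49.8% and 36.9%. In input, by contrast, the old library was the lowest for 6 of 7 members, all but Rph. The members' summed level was 839, 620 and 710 CPM in input libraries 1 to 3 and 266 CPM in the old one, and 159, 253, 148 and 103 CPM in synaptosomes. Summed neuron markers (7 genes) moved with it, at 581, 458, 612 and 208 CPM in input and at 126, 230, 131 and 73.8 CPM in synaptosomes. Most of the input sum came from Rbp9, nSyb and Syt1 (means of 150, 142 and 118 CPM). Of these, nSyb and Syt1 are themselves on the list of vesicle membrane and fusion proteins. By fold change 5 of 7 neuron markers were below 0, the others being elav (1.40) and para (0.74). None of these neuron markers passed the test in either direction (edgeR, median log2 fold change -1.72, 2 at unadjusted p under 0.05 and 2 lower by DESeq2). The marker fne had no synaptosome count, and elav stood at 18.5 ± 11.4 CPM in synaptosomes and 6.99 ± 4.41 CPM in input. The part of neuronal RNA content in the members' levels was not tested.

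**Figure D3:**
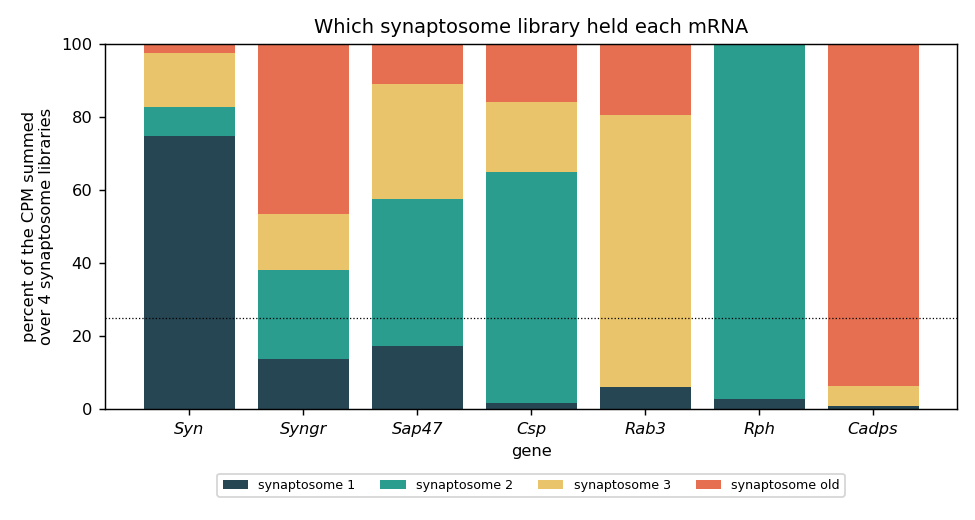
Share of each gene's summed synaptosome CPM (percent) that came from each of the 4 synaptosome libraries, with the dotted line at an even share. Library 1 held 74.9% of Syn, library 2 held 97.2% of Rph, library 3 held 74.3% of Rab3 and the old library held 93.7% of Cadps.

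Alternative 3′ ends were counted separately for each gene, so it could be asked whether the synaptosome fraction and whole heads used different ends. The 7 genes had 24 numbered ends, of which 23 had any count and 15 a count in synaptosomes. Syn, Sap47, Csp and Cadps had several ends and Syngr, Rab3 and Rph had 1 each. The end tables carry numbers without positions, so an end cannot be placed along its 3′ UTR. The deposited list of known ends gives the scope: 15 for Sap47, which spread over 5245 bases, 3 for Rab3 within 265 bases, and 22 for Cadps, of which 13 lie past the annotated end of the gene. Of 12 member ends that passed the filter on low counts 0 were called (edgeR, 3 at unadjusted p under 0.05, 2 lower by DESeq2), where 6.46% of all 11062 tested ends were lower and 0.732% higher. DESeq2 placed 749 of all ends lower. Use of ends within the gene could be tested for Syn (adjusted p = 0.958) and Sap47 (adjusted p = 0.801), and for neither did it pass, where 3.56% of 2216 genes did.

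Sap47 used mainly end 4 in whole heads, with 63.2%, 61.9%, 50.3% and 61.1% of its counts in input libraries 1, 2, 3 and old. In synaptosomes the share was 28.7%, 26.2% and 33.0% in libraries 1 to 3 and 0% in the old library, where 0 of 219 counts allow up to 1.72% (upper Wilson 95% bound). Every synaptosome share was below every input share (22.0% ± 14.9 against 59.1% ± 5.96). The most used input end lost share in every synaptosome library in 5.06% of the 1560 genes where this could be read. The level of end 4 had a log2 fold change of -3.48 ± 1.10 (adjusted p = 0.0941), past the threshold over libraries 1 to 3 (-3.23, adjusted p = 0.0414) and without the old synaptosome library (-3.06, adjusted p = 0.031). It missed in the other 7 fits without 1 library (adjusted p from 0.118 to 0.207) and in 14 of 19 alternatives in all.

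The ends that held the remaining Sap47 counts differed between synaptosome libraries. End 24 held 55.6% and 48.5% in libraries 1 and 3 but 0% and 4.11% in libraries 2 and old. End 26 did the reverse, with 4.09% and 13.6% in libraries 1 and 3 and 68.2% and 59.4% in libraries 2 and old. In input end 24 ranged from 5.11% to 14.1% and end 26 from 21.5% to 25.8%. End 21 held 30.1% in the old synaptosome library and at most 0.585% in the other 3, against 2.79% to 7.84% in input. Wilson 95% intervals of end 24 in synaptosome libraries 1 (48.1% to 62.8%) and 2 (0% to 3.47%) do not overlap, and they cover counting error only, since no molecular identifiers mark copies made by PCR.

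Syn divided its counts between end 5 and end 6, with end 5 the more used in every input library at 61.9%, 55.8%, 67.7% and 62.1%. In synaptosomes end 5 held 64.7% of 462 counts in library 1, 100% of 13 in library 2, 20.0% of 30 in library 3 and 0% of 30 in the old library. Library 1, with the most Syn counts, lay inside the input range, and the other 3 lay outside it in both directions. Cadps end 4 held 65.5%, 10.0%, 60.8% and 43.9% in input and 0 of the 211 synaptosome counts, which allows a share of up to 1.42% over 3 counts. Of these 211 counts 208 came from the old synaptosome library, in which end 1 held 64.9%, end 2 19.2% and end 3 15.9%. Csp kept to end 9, with 364 of 364 synaptosome counts and a mean of 97.1% ± 2.75 in input, where its minor ends summed to 2.03% of pooled counts. A share of up to 0.824% for those ends in synaptosomes was below what these counts could show.

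**Figure D4:**
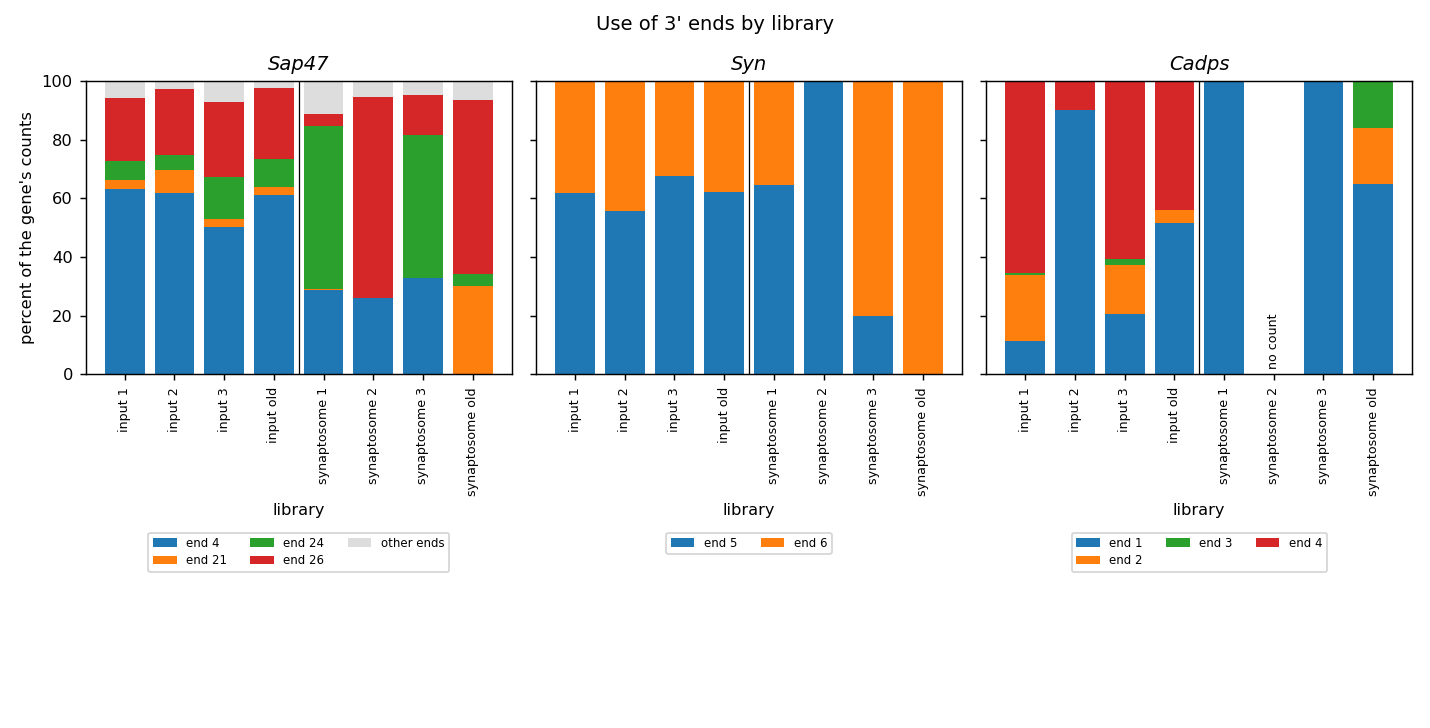
Percent of each gene's counts at each numbered 3′ end in the 4 input and 4 synaptosome libraries for Sap47, Syn and Cadps. Sap47 end 4 lies between 50.3% and 63.2% in input and between 0% and 33.0% in synaptosomes, and Syn end 5 between 55.8% and 67.7% in input and from 0% to 100% in synaptosomes.

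Partners of the Rab3 and tethering step had negative fitted fold changes. Of 9 tested genes 1 was lower and 0 higher, with a median log2 fold change of -1.23 and 9 of 9 below 0. Over all tested genes 4.13% were lower, 0.944% higher and 62.3% below 0, and these shares also stand beside the lists that follow. Apart from the gene that passed, adjusted p in this list was at least 0.530 (edgeR). The gene that passed was Rab26, a vesicle GTPase, which had no synaptosome count and 16.3 ± 7.65 CPM in input, at least 11.3-fold lower (floor of 3 counts per library, adjusted p = 0.049). Its call was lost in 7 of 8 fits without 1 library (adjusted p up to 0.130), in 13 of 17 alternatives in all, and over libraries 1 to 3 (adjusted p = 0.0504). Rab3-GAP, which turns Rab3 off, had the highest value of the list (-0.67 ± 1.65, adjusted p = 0.932). Rab27, another vesicle GTPase, was at 10.4 ± 11.9 CPM in synaptosomes (adjusted p = 0.597), where its highest library, at 27.2 CPM, lay under the lowest input library, at 30.6 CPM. Such separation was seen for 14.5% of all tested genes.

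Among genes that work with Csp, 1 of 6 was lower and 0 were higher, with a median of -0.62. Hsp83, the fly Hsp90 chaperone, was at 130.1 ± 27.1 CPM in synaptosomes and 404 ± 81.8 CPM in input (-1.63 ± 0.36, adjusted p = 0.049), a call that was lost in 7 of 8 fits without 1 library (adjusted p up to 0.130) and in 12 of 18 alternatives in all. Hsc70-4, the constitutive Hsc70 that Csp activates, was at 433 ± 241 and 1033 ± 167 CPM (-1.25 ± 0.43, adjusted p = 0.155). Sgt, the third member of the Csp chaperone complex, was at 62.6 ± 7.40 and 47.2 ± 4.03 CPM (0.41 ± 0.45, adjusted p = 0.814). Its synaptosome libraries spanned 55.3 to 72.7 CPM and its input libraries 43.1 to 52.6 CPM. The share of all tested genes that separated upward like this is not given here. Hsp83 (at most 159 against at least 326 CPM) and Hsc70-4 (at most 725 against at least 807 CPM) separated downward, as 14.5% of all tested genes did.

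Of 14 tested genes of the vesicle membrane and its fusion machinery 1 was lower and 0 higher, with a median of -1.30. cpx, complexin, the clamp and activator of SNARE-driven fusion, was at 40.3 ± 12.7 and 174 ± 91.4 CPM (-2.11 ± 0.51, adjusted p = 0.049), and its call too was lost in 7 of 8 fits without 1 library (adjusted p up to 0.163) and in 12 of 18 alternatives. Syt7, a synaptotagmin calcium sensor, had the lowest value of the list at -3.12 ± 1.74 (adjusted p = 0.492) and Syx1A, the plasma membrane SNARE syntaxin, the highest at 1.09 ± 1.01 (adjusted p = 0.753). Of 15 genes of dense-core vesicles and peptide processing 0 passed (edgeR, 2 at unadjusted p under 0.05, 1 lower by DESeq2), with a median of -0.74. Syt7 was again the lowest, and Sytalpha, another synaptotagmin, was the highest at 0.71 ± 0.98 (adjusted p = 0.865). Phm, which amidates neuropeptides, was at 598 ± 332 and 528 ± 32.0 CPM (0.18 ± 0.42, adjusted p = 0.927). Of 12 kinases and phosphatases that act on synapsin in animals 0 passed (edgeR, 3 at unadjusted p under 0.05, 1 lower by DESeq2), with a median of -0.56, from Pp2B-14D, a calcineurin catalytic subunit (-4.02 ± 1.49, adjusted p = 0.195), to Pka-C1, the protein kinase A catalytic subunit (0.25 ± 1.24, adjusted p = 0.972), whose sign depended on single libraries.

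**Figure D5:**
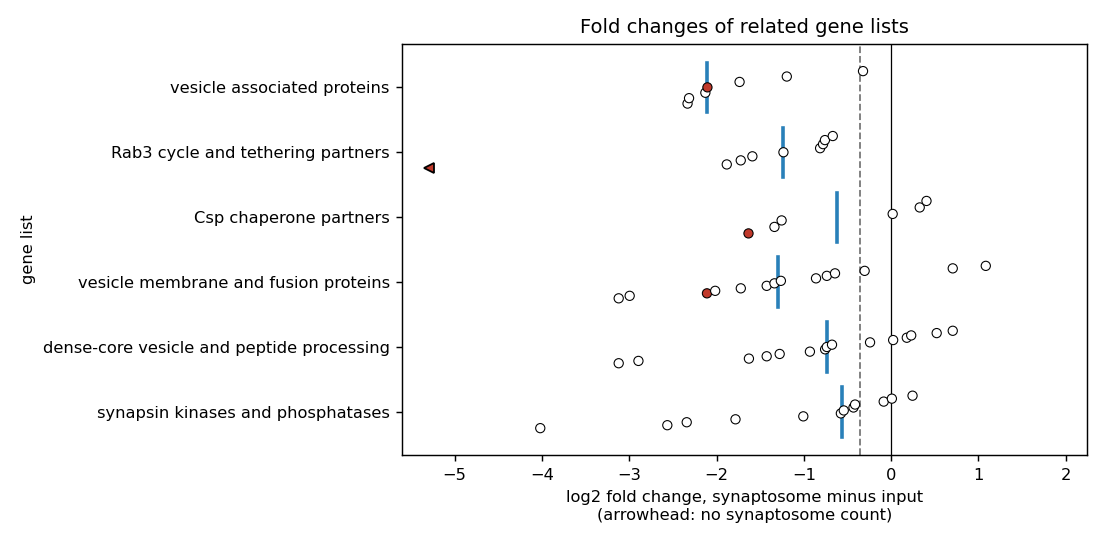
Log2 fold changes (synaptosome minus input) of the 7 vesicle-associated genes and of 5 lists of related genes, with list medians as blue lines, genes with an adjusted p under 0.05 filled, the median of all tested genes dashed and Rab26, which had no synaptosome count, as an arrowhead. A single gene is filled in each of the first 4 lists, and the medians run from -2.10 for the vesicle-associated genes to -0.56 for the synapsin kinases and phosphatases.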

How the data were processed

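RNA of 4 synaptosome and 4 input libraries was made into 3′-end libraries with a QuantSeq REV kit. As the methods and submitters' notes describe, the authors used fastp for trimming and STAR 2.6.1b for alignment on dm6, masked internal priming sites, joined peaks into clusters and kept clusters at 3′ ends known from long reads or Ensembl. Masking and this comparison remove ends in A-rich or unlisted sites. The deposited values were whole, unnormalized counts per gene (10669) and per end (20177). A deposited list gave 52971 known ends as positions. The authors' deposited comparison tables (fold changes and p-values from DESeq2) were not used. Columns named 1 to 3 matched sample titles, and the column named old in each group entered as an unnumbered library.

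The gene test was that of edgeR 4.0.16 in R 4.3.3 (filterByExpr on the groups, TMM scaling, robust quasi-likelihood test, Benjamini-Hochberg adjustment at 0.05 over all tested genes or ends). Use of ends was tested with diffSpliceDGE, and DESeq2 1.42.0 was an alternative. The floor is 3 counts. Intervals are at 95% (Wilson for shares, exact for ratios) and cover counting error only. The steps were tested on simulated data. Symbols and coordinates come from the Ensembl annotation of genome release 6. All 114 list entries matched an identifier, and 111 were in the count table.

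Named were the 7 members, the genes of each partner list that passed the test with its highest and lowest, the 5 genes most alike to the members, and every end with at least 10% of its gene. Rab27, Gdi, btsz, Hsc70-4, Phm, Timp, ras, elav, fne, para, Rbp9, nSyb, Syt1, Arr1, Arr2 and Cpr72Ec were named after their values were seen. Members and lists were chosen with earlier results of these data known. Of the marker lists, fat body had 0 of 6 genes called (median log2 fold change -0.38; edgeR, 0 at unadjusted p under 0.05, 0 by DESeq2), and the report gives the others. Alternatives were other scalings, filters, tests, leaving out libraries, thinning to 1029666 counts, a replicate block and, chosen after seeing the data, a batch term for the old libraries and leaving out the 2 shallowest synaptosome libraries.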

Additional observations from a re-analysis of the deposited data

Results flagged for a closer look

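In 31 groups of 4 libraries, 6 held a library far from the other 3 (Dixon's gap over range past its 95% limit). That limit flags about 1 in 20 groups only for independent, normally spread values. Low counts and shares of the same genes are not such values, so the number flagged cannot be set against chance. For gene levels these were Syn in synaptosome library 1 (107.751 CPM), Rph in synaptosome library 2 (41.19 CPM) and Cadps in the old synaptosome library (24.3789 CPM). For shares of ends they were Sap47 end 4 in input library 3 (50.286%), and Sap47 end 21 in the old synaptosome library (30.137%) and in input library 2 (7.84218%). The 3 gene levels come from 3 different libraries.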

How the results depend on the processing

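The count of members lower in synaptosomes, 1 with all libraries, was 2 with DESeq2 and without the old libraries. It was 0 without a filter on low counts, with a required mean count of 50, after thinning to the smallest library and without the 2 shallowest synaptosome libraries. It ranged from 0 to 3 when 1 library was left out. The count of member ends lower, 0 with all libraries, was 2 with DESeq2, 4 without the old libraries, 2 with the replicate block on libraries 1 to 3, 1 with a batch term for the old libraries and from 0 to 5 when 1 library was left out. The count of members with changed use of ends, 0, ranged from 0 to 1, the 1 being Sap47 without the old synaptosome library. No member or member end was called higher under any alternative run.

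Members other than Syn kept a negative fold change under all alternatives. Leaving out 1 library gave Syn a range of -1.94 to 0.058, Syn end 6 of -1.50 to 0.15 and Pka-C1 of -0.73 to 0.75. The direction of Syn turned (0.039 without synaptosome replicate 2, 0.058 without the old synaptosome library, 0.37 without the 2 shallowest), as did that of Syn end 5 (0.26 without the 2 shallowest) and of Syn end 6 (0.15 without synaptosome replicate 2, 0.63 thinned, 0.25 without the 2 shallowest). Cadps end 1 turned to 0.34 without the 2 shallowest. Pka-C1 turned to -0.73 without synaptosome replicate 2, -0.056 without the old input library, -0.59 with the batch term and -2.37 without the 2 shallowest. The causes were not tested. The calls of Rab26, Hsp83 and cpx were lost in 13, 12 and 12 of their alternatives.

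Deviations of same-numbered synaptosome and input libraries had correlations of -0.017, 0.011 and -0.078, and those of differently numbered ones -0.055 to 0.095. By the study's methods, input was sampled from the homogenate before it was spun. The labels do not say which libraries share a preparation, and correlations over so few libraries cannot decide it. The main test had no pairing term. With the replicate block the count of members lower was 1. Syngr, past the threshold over the same libraries without the block, was at adjusted p = 0.175 (edgeR), and Csp end 9 (adjusted p = 0.000332) and Sap47 end 4 (0.00113) passed, while the Csp gene, nearly all of it end 9, did not (0.132). Over all genes, the 337 lower and 77 higher became 1 to 984 and 0 to 226 over the alternatives (984 and 182 without the old synaptosome library, 50 and 50 without a filter, 36 lower with a required mean of 50, 33 lower thinned), the 715 lower and 81 higher ends 0 to 1956 and 0 to 231, and the 79 genes with changed use 0 to 432. DESeq2 for use of ends was not run, and the limit on ends with at least 5% of their gene gives no value for genes. Depth limits synaptosome libraries 2 and 3 most: 3 counts correspond there to 2.63 and 2.12 CPM, near the levels of Rab3, Rph and Cadps.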

Other observations

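The genes whose pattern over the 8 libraries was most like the members' mean standardised log2 CPM were CG3407 (Pearson r 0.992), robo3 (0.992), CG12531 (0.989), CG14785 (0.989) and CG11307 (0.986), picked as the highest of all tested genes. All 5 had no synaptosome count and their lowest input value in the old library, such as CG12531 at 14.5, 6.48, 14.4 and 2.75 CPM in input libraries 1, 2, 3 and old. Between members the likeness over the 4 synaptosome libraries (log2 CPM) ran from r of -0.94 for Rph and Rab3 to 0.71 for Cadps and Syngr, and these few points share library and depth.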
